A study of Mus musculus with 2 samples.

Results

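Glycolysis and the response to hypoxia were followed through 35 genes, of the 32291 genes in the expression table, in single cells of colitis-associated colon tumors (CACs) from mice. The genes were chosen by name, as genes of these pathways. They comprise 22 genes of glucose uptake, glycolysis and lactate export and 13 genes of the hypoxia response, and all 35 were found in the table. CACs had been induced by azoxymethane (AOM, 10 mg/kg) and 3 periods of dextran sodium sulfate (DSS, 2.5% in the first periods and 2% in the last), started at 6 to 10 weeks of age, and mice were sacrificed at day 110. The group Mir34a_F/F carried floxed Mir34a alleles without a Cre recombinase, and the group Mir34a_Mye_KO carried the same floxed alleles together with LysM-Cre, which recombines in the myeloid lineage, mainly macrophages and neutrophils. Per the study's methods, both groups were female littermates on a C57Bl/6 background, so that floxed Mir34a, AOM and DSS were shared by all animals. For each genotype, 6 to 8 tumors of 3 mice were pooled into 1 library.

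Glycolysis converts glucose to pyruvate, which is reduced to lactate when oxygen is short or when cells run glycolysis at a high rate in its presence. In hypoxia, prolyl hydroxylases lose activity, the transcription factor subunit HIF-1 alpha is no longer degraded, and HIF binds short DNA motifs with the core ACGTG or GCGTG at genes of glucose uptake, glycolysis, pH control and mitophagy. The gut mucosa is a tissue with steep oxygen gradients, and activated neutrophils and inflammatory macrophages are known for high glycolytic rates.

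The libraries held 20312 cells (Mir34a_F/F) and 18571 cells (Mir34a_Mye_KO) in 11 annotated cell types. Throughout, pairs of values are given with Mir34a_F/F first. Unique molecular identifiers (UMIs) gave the number of captured molecules. The level of a member is given as UMIs per 10000 UMIs of a cell, averaged over the cells of a type, a scale on which mRNAs can be compared because each molecule is counted once at its 3′ end. The median depth was 4787 and 7716 UMIs per cell, a ratio of 1.61, and this ratio ranged from 1.11 in endothelial cells to 5.69 in B cells (3664 and 20852 UMIs). Cells with at least 25% mitochondrial UMIs made up 20.04% and 38.8% of epithelial cells, and 96 barcodes occurred in both libraries. Leaving these barcodes out moved the ratio of the summed level between the libraries by less than its counting error in each of the 7 larger cell types, for which it was run. All markers of the annotated cell types were highest in their own type in both libraries, except in basophils, where this held for 1 of 3 markers and where neutrophil markers summed to 436 and 365 UMIs per 10000. Rows for the mature, hairpin and stem-loop sequence of Mir34a held 0 UMIs in both libraries. The row for its primary transcript had 133 and 462 UMIs in macrophages, so that the deletion could not be checked on these libraries and genotypes are those of the labels. With 1 library per genotype, no difference between genotypes was tested. All intervals are 95% intervals that cover counting error only, not the variation between cells or between mice.

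Sequences upstream of the genes are shown first, because HIF acts on its targets through such DNA. Promoter windows of 300 bases (250 before to 50 after the annotated start, RefSeq, GRCm38.p6) were found for 32 of the 35 members, in 45 windows; Slc2a3, Bnip3l and Ndrg1 had no entry. Both strands were searched for ACGTG and GCGTG, and the palindrome CACGTG counts as 2 overlapping matches. At least 1 match lay in 82.2% of the 45 windows of members and in 43.8% of all 32851 windows. At least 3 matches lay in 31.1% of the windows of members, against 8.93% of all windows. The windows of members were also richer in G and C, with a median of 63.3% against 52.7%. Among all windows in the middle GC range of the members, 62.9% held at least 1 match and 16.3% at least 3. The 4 windows below belong to members of which macrophages with Arg1 held at least 3-fold more than macrophages with Mrc1 in one or both libraries, and the last, Hk2, belongs to a member that hardly differed between these groups. They were picked as examples, and members without a match also differed. Capitals mark the matches on either strand.
Bnip3 (chr7:138909457-138909756, minus strand): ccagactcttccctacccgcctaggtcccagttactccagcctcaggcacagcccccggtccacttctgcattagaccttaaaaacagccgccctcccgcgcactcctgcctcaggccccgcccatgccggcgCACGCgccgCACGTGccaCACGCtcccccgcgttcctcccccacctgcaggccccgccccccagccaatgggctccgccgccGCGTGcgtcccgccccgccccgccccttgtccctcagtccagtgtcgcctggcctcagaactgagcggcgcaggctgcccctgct
Pgk1 (chrX:106186850-106187149, plus strand): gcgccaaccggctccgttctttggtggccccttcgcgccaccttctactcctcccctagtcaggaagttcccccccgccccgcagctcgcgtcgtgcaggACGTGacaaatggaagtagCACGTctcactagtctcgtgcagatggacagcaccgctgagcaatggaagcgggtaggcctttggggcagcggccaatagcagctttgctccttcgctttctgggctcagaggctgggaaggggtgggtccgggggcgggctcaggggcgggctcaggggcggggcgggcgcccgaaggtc
Slc16a3 (chr11:120948817-120949116, plus strand): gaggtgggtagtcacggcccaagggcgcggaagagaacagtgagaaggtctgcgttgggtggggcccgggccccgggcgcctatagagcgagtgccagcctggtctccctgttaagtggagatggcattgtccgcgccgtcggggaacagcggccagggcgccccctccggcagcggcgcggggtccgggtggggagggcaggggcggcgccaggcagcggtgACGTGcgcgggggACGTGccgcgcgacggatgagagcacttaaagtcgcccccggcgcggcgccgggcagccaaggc
Ero1l (chr14:45318523-45318822, minus strand): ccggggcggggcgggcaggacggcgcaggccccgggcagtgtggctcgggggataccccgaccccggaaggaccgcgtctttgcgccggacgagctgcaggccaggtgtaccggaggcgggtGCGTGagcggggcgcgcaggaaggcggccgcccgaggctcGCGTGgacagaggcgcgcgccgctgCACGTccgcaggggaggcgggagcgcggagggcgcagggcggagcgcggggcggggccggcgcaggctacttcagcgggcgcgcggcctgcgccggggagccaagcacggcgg
Hk2 (chr6:82774405-82774704, minus strand): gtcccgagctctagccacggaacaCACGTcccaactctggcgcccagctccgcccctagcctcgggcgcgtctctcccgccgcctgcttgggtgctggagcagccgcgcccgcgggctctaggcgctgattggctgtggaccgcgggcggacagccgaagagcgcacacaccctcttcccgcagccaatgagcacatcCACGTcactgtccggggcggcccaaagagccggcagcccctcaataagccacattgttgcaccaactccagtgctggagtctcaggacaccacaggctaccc
The windows of Bnip3, Ero1l, Pgk1, Slc16a3 and Hk2 held 5, 3, 2, 2 and 2 matches. The windows of Tpi1 and Gpi1 held 0 matches, and their levels were higher in macrophages with Arg1 by log2 ratios of 1.27 and 1.33 and of 0.80 and 1.09. That of Pfkfb4, which was below 0 there, held 1. A match is a description of the letters in the window, not a site shown to be bound. Matches outside the windows were not searched for, and the part of matches in the levels was not tested.

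The deleted miRNA pairs with mRNAs mainly through its seed, bases 2 to 8 of the mature strand, which is shown in capitals for miR-34a-5p (RefSeq, GRCm38.p6, chr4:150068473-150068494, plus strand).
miR-34a-5p: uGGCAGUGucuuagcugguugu
The matching letters CACTGCC occurred in the longest annotated 3′ UTR (GENCODE, GRCm38) of 13 of the 35 members (37.1%) and of 2981 of 20971 genes (14.2%), with median UTR lengths of 1263 and 954 bases. These members were Slc2a3, Hk1, Pfkfb4, Aldoa, Tpi1, Ldha, Slc16a3, Pdk1, Egln1, Ndrg1, Ddit4, Adm and Ero1l. The matches of 5 members whose values recur below are printed on the mRNA strand, with the seed match in capitals and its position in parentheses.
Slc2a3 (chr6:122728483-122728489, minus strand): gtacagaagcagCACTGCCt
Slc16a3 (chr11:120958519-120958525, plus strand): ctggcaggtggaCACTGCCt
Ldha (chr7:46855350-46855356, plus strand): gtctctgagacaCACTGCCa
Aldoa (chr7:126795257-126795263, minus strand): tcccttccagccCACTGCCa
Ddit4 (chr10:59950494-59950500, minus strand): gggagggtttctCACTGCCc
In Ldha and Aldoa the match is followed by an A, the longest kind of seed pairing, and in the others it is not.

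Summed over all 35 members, the mRNAs made up the largest part of the UMIs in macrophages and neutrophils and the smallest in B cells. The sum was 58.7 and 46.8 UMIs per 10000 in macrophages, 57.2 and 58.9 in neutrophils, and 46.7 and 37.5 in epithelial cells. T cells held 44.95 and 40.4, dendritic cells 41.1 and 38.5, mast cells 34.7 and 32.7, and B cells 23.04 and 15.9. Macrophages led in the Mir34a_F/F library and neutrophils in the Mir34a_Mye_KO library, so the order of the upper 2 types was not shared, while B cells were lowest of all 11 types in both. Rarer types lay between, with 39.8 and 29.6 in endothelial cells (116 and 107 cells), 36.04 and 25.8 in fibroblasts (57 and 60 cells), 32.3 and 33.4 in erythroid cells (106 and 30 cells) and 48.3 and 41.0 in basophils (48 and 40 cells).

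**Figure D1:**
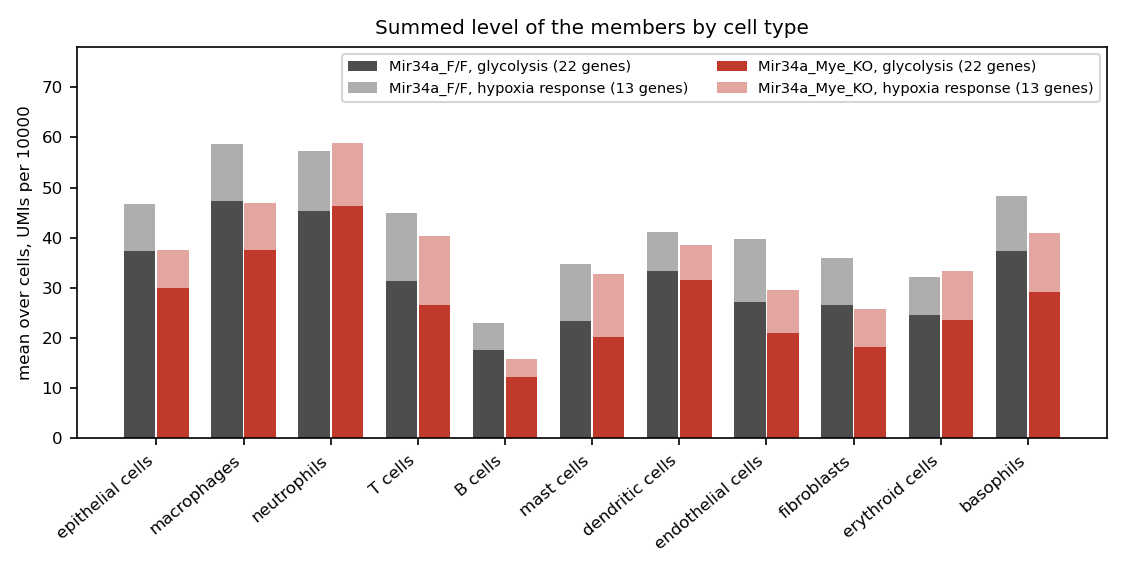
Summed level of the 35 members, as the mean over cells of UMIs per 10000, in the 11 cell types (x axis) of the Mir34a_F/F library (grey) and the Mir34a_Mye_KO library (red). Full colour is the glycolysis list (22 genes) and light colour the hypoxia response list (13 genes) stacked on it; B cells are lowest in both libraries, and neutrophils do not have the lower red bar of the epithelial cells and macrophages.

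Cells of a type differed in how much of the sum they held. After thinning every cell to 1000 UMIs, the variance of the members' UMIs over their mean was 2.37 and 2.15 in macrophages, 2.26 and 2.31 in neutrophils and 2.11 and 1.965 in epithelial cells. It was lower in T cells (1.66 and 1.76), mast cells (1.29 and 1.38) and B cells (1.31 and 1.24), where counting alone would give a value of 1. Macrophages, neutrophils and epithelial cells were thus the types with the widest spread between cells, and groups of cells within macrophages and epithelial cells are described below.

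Of the 35 members, 33 reached a mean of 0.1 UMIs per 10000 in at least 1 of the 7 types with over 300 cells per library. The other 2, Pfkm, the muscle type phosphofructokinase, and Eno2, the neuronal enolase, held at most 0.0273 in each of the 7 types. The cell type with the highest level was the same in both libraries for 18 of the 33. Epithelial cells led for 7 members (background 21.5% of all genes), macrophages for 3 (8.32%), neutrophils for 4 (7.09%), mast cells for 2 (7.11%), T cells for 1 (16.3%), dendritic cells for 1 (10.6%) and B cells for 0 (5.05%). The annotation was made from the same values, so these are descriptions.

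Glucose enters cells through Slc2a1 (GLUT1), the widely used transporter, and Slc2a3 (GLUT3), which has a higher affinity for glucose. Slc2a3 was a neutrophil mRNA, with 1.88 and 3.19 UMIs per 10000. Of the 7 larger types, mast cells followed in both libraries with 0.592 and 0.841, and epithelial cells were lowest with 0.0401 and 0.0797. Basophils held 0.578 and 1.15. Slc2a1 was spread more evenly and was not highest in the same type in both libraries (macrophages with 1.33 in Mir34a_F/F, neutrophils with 1.56 in Mir34a_Mye_KO). Hexokinases trap glucose in the cell, and Hk2 was by far the most abundant of them. Hk2 reached 4.88 and 3.82 in epithelial cells, 3.47 and 2.91 in macrophages and 1.02 and 0.636 in B cells, and this order was the same in both libraries. Hk1 stayed between 0.162 and 0.495 in the 7 types.

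Among the phosphofructokinases, which catalyse the committed step of glycolysis, Pfkp, the platelet type, was highest in dendritic cells of the 7 larger types, with 1.13 and 1.54, and basophils held 3.10 and 1.81. Pfkl, the liver type, stayed at or below 0.521 in the 7 types. The enzymes that make and remove fructose 2,6-bisphosphate, the strongest activator of phosphofructokinase, had low levels. Pfkfb3 did not exceed 0.876 in the 7 types, and Pfkfb4 was highest in neutrophils of the 7 larger types with 0.194 and 0.251.

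The lower steps of the pathway include Gapdh, the most abundant member in macrophages, neutrophils and epithelial cells of both libraries. It held 9.88 and 7.82 in macrophages, 9.29 and 7.76 in neutrophils and 6.52 and 5.10 in epithelial cells. Pgk1, which makes the first ATP, was highest in macrophages with 3.53 and 2.66, and so were Gpi1, the isomerase after hexokinase, with 2.39 and 2.01, and Pgam1, the mutase after Pgk1, with 2.77 and 2.21. Tpi1, which interconverts the triose phosphates, was highest in epithelial cells with 3.26 and 2.49. Aldoa, the main aldolase, made up over 96% of the UMIs of Aldoa and Aldoc in every one of the 6 types compared (epithelial cells, macrophages, neutrophils, T cells, mast cells and dendritic cells). Aldoc reached at most 0.131 in the 7 larger types. Eno1 held 1.84 and 1.20 in macrophages, 1.31 and 1.21 in neutrophils and 0.841 and 0.547 in epithelial cells. Reads of Eno1 may be split with the near-identical copy Eno1b, which held 0.0683 and 0.0340 in macrophages, so values of Eno1 are uncertain, by an amount that was not measured. Pkm, which encodes a pyruvate kinase, ranged in the 7 types from 1.33 to 5.28. Ldha, which makes lactate, was between 2.84 and 4.23 in epithelial cells, macrophages, neutrophils, T cells, mast cells and dendritic cells, 1.64 and 1.02 in B cells and 7.74 and 3.87 in basophils.

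Lactate leaves cells through Slc16a3 (MCT4), the low-affinity exporter of glycolytic cells, and passes either way through Slc16a1 (MCT1). Slc16a3 was skewed towards neutrophils, which held 5.36 and 7.55, against 1.61 and 1.15 in macrophages, 0.800 and 0.596 in epithelial cells and 0.640 and 0.478 in T cells. After thinning to 1000 UMIs, 37.6% and 46.2% of neutrophils had a UMI of Slc16a3, against 5.76% and 3.97% of T cells. Slc16a1 was highest in epithelial cells of the 7 larger types, with 0.270 and 0.268.

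Hypoxia response genes had less uniform patterns. Hif1a, the oxygen-sensitive HIF subunit, was highest in T cells with 6.13 and 6.56 and lowest of the 7 types in B cells with 1.47 and 0.913. The prolyl hydroxylases that mark HIF-1 alpha for degradation differed, in that Egln3 (PHD3) held 1.22 and 0.913 in epithelial cells and 0.603 and 0.351 in macrophages, while Egln1 (PHD2) held 0.379 and 0.319 and 0.559 and 0.449. Of the 7 larger types, mast cells led for Ero1l, the oxidoreductase that forms disulphide bonds in the endoplasmic reticulum, with 3.67 and 4.97, and for Ndrg1, a stress-induced gene of many tissues, with 2.42 and 3.21. Both were higher in mast cells of the Mir34a_Mye_KO library, by log2 ratios of 0.44 (0.31 to 0.56) and 0.41 (0.25 to 0.57). In these cells mast cell markers summed to 74.02 and 94.4, epithelial markers to 19.8 and 10.3 and B cell markers to 1.97 and 5.90, the median depth was 2951.5 and 8456 UMIs, and the part of these was not tested. Bnip3l (NIX), a receptor for mitophagy that also clears mitochondria from maturing red cells, was highest in neutrophils of the 7 larger types (1.43 and 1.35) and held 2.75 and 4.05 in erythroid cells. Its relative Bnip3 held 0.752 and 0.426 in macrophages, 0.728 and 0.600 in neutrophils and 0.419 and 0.289 in epithelial cells.

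Car9, a membrane carbonic anhydrase and a widely used hypoxia marker, was highest in epithelial cells with 0.292 and 0.213. A UMI of Car9 was present in 2.93% and 2.15% of thinned epithelial cells, and in 0.73% and 0.85% of macrophages. Adm, a vasodilator peptide precursor, was highest among the 7 types in epithelial cells with 0.244 and 0.252, and Ddit4 (REDD1), an inhibitor of mTORC1, likewise with 0.974 and 0.783. P4ha1, a collagen prolyl hydroxylase, held 1.08 and 1.01 in macrophages and 0.975 and 1.22 in T cells. Pdk1, which diverts pyruvate from the mitochondria, stayed at or below 0.284 in the 7 types. Ankrd37, a small HIF target, held at most 0.237 in the 7 types and reached 0.778 and 0.389 in endothelial cells.

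**Figure D2:**
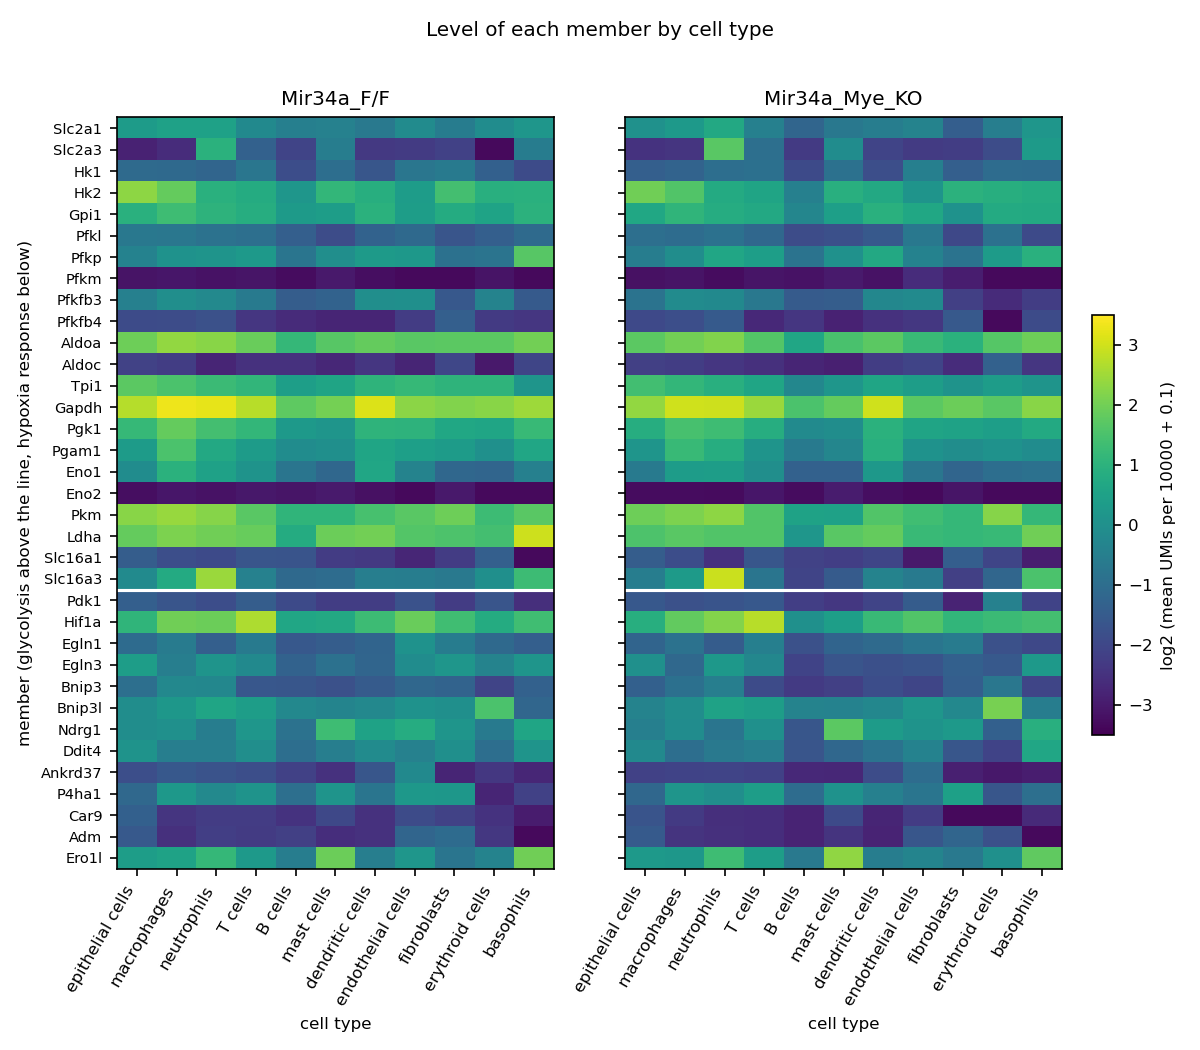
Level of each of the 35 members (rows, glycolysis above the white line and hypoxia response below) in the 11 cell types (columns) of the Mir34a_F/F library (left) and the Mir34a_Mye_KO library (right). Colour is log2 of the mean UMIs per 10000 plus 0.1; Gapdh, Pkm, Aldoa and Ldha are bright in most columns, Slc16a3 and Slc2a3 stand out in neutrophils, Ero1l and Ndrg1 in mast cells, and Pfkm and Eno2 are dark throughout.

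Genes outside the list with a similar distribution were sought over the 22 profiles of cell type and library among 7022 genes. Smox (Pearson's r 0.82), Cdkn1a (0.82), Clic1 (0.82), Tes (0.81) and Rab11fip1 (0.81) were closest to the summed level, followed by Chmp4b, Vasp, Txnrd1, Mrpl33 and Naip2 (0.80, 0.80, 0.80, 0.80 and 0.79). Of the members, Aldoa (0.96), Gpi1 (0.88) and Pgk1 (0.86) were closest to the sum they are part of. The profiles share 2 libraries and their depths, so the values are descriptions.

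Macrophages were next divided by Arg1, the arginase, and Mrc1, the mannose receptor CD206, counting UMIs after thinning so that depth did not decide the group. Arg1 without Mrc1 was found in 414 and 220 cells, and Mrc1 without Arg1 in 242 and 468 cells. The members were higher in the Arg1 cells nearly throughout. Their sum was 83.0 against 38.7 UMIs per 10000 in the Mir34a_F/F library (log2 ratio 1.10, 1.06 to 1.14) and 74.97 against 33.6 in the Mir34a_Mye_KO library (1.16, 1.12 to 1.19). Of 30 members that reached the minimum level, 24 were higher by a log2 ratio of at least 0.5 in both libraries, against 5.76% of all genes, and 0 were lower, against 12.4%. The median log2 ratio was 1.01 and 1.15 over these members and -0.08 and -0.05 over all genes tested. The summed epithelial markers were 14.05 against 14.9 and 10.4 against 9.41 UMIs per 10000, close in both groups, while neutrophil markers were lower in the Arg1 cells (8.33 against 14.9 and 4.03 against 10.8). So were macrophage markers (19.7 against 37.8 and 16.4 against 40.5). Erythroid markers summed to 1.38 against 7.81 in Mir34a_F/F and to 0.116 against 0.0347 in Mir34a_Mye_KO. The median depth was 9073 against 9502 and 11903 against 17017 UMIs. The part of these marker levels or of depth in the differences was not tested.

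The widest differences were those of Bnip3, Ero1l, Egln3, Eno1, Pgk1 and Slc16a3, a group of mitophagy, disulphide, oxygen-sensing, glycolytic and lactate export genes. Bnip3 was at 1.39 against 0.318 in Mir34a_F/F (log2 ratio 2.12, 1.64 to 2.61) and at 1.01 against 0.246 in Mir34a_Mye_KO (2.03, 1.62 to 2.43). Slc16a3 was at 2.26 against 0.761 (1.57, 1.26 to 1.88) and at 2.195 against 0.533 (2.04, 1.76 to 2.32). Ero1l differed by 1.89 and 1.70, Egln3 by 1.82 and 1.60, Pgk1 by 1.73 and 1.75, and Eno1 by 1.73 and 1.90 on the log2 scale. Each of these intervals lay above 0.5 in both libraries, and the values of the libraries lay within 0.5 of each other. Gapdh differed by 1.29 and 1.46. Hif1a itself differed less, by 0.42 and 0.69. Hk2, whose promoter was shown above beside those of Bnip3, Pgk1, Slc16a3 and Ero1l, was at 3.697 against 3.403 and at 3.37 against 3.04, a log2 ratio of 0.12 (-0.04 to 0.28) and 0.15 (0.01 to 0.29). Pfkfb4 was the only tested member below 0 in both libraries (-0.69 and -0.45), with intervals that held 0.

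**Figure D3:**
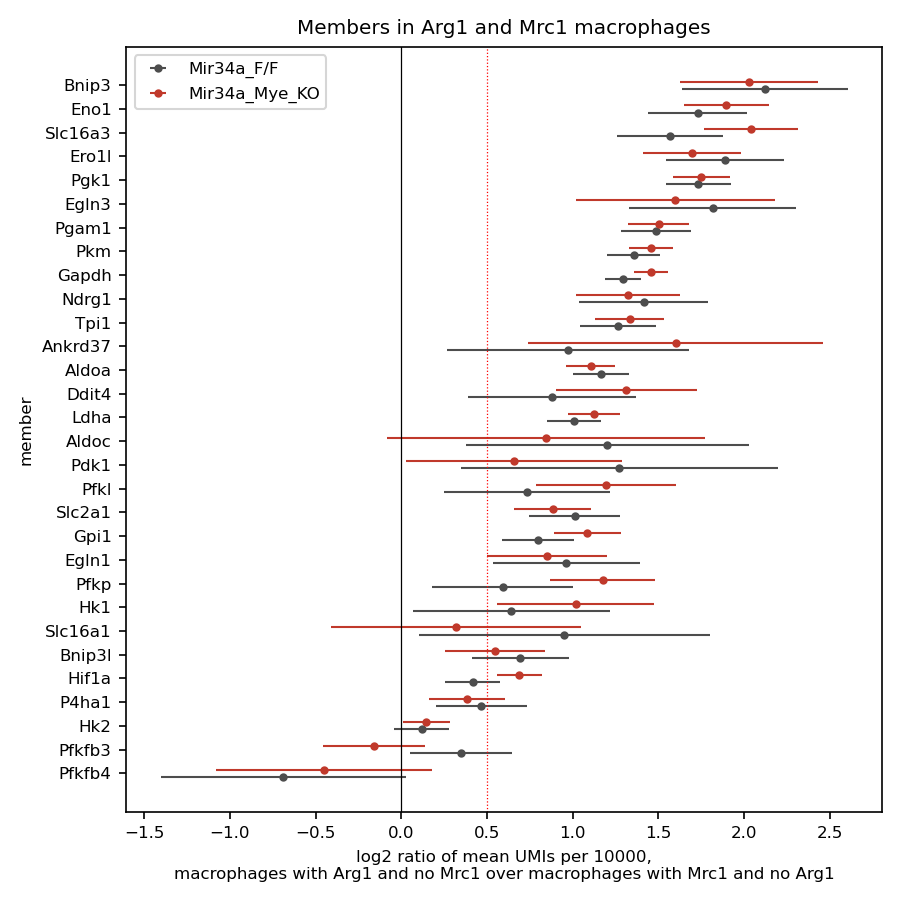
Log2 ratio of the mean UMIs per 10000 (x axis) between macrophages with Arg1 and no Mrc1 and macrophages with Mrc1 and no Arg1, for the 30 members tested (y axis, ordered by the mean of both libraries). Points are the Mir34a_F/F library (grey) and the Mir34a_Mye_KO library (red) with 95% counting intervals, and the dotted line is at 0.5; Bnip3 is at the top with 2.12 and 2.03, and Hk2 lies near 0 with 0.12 and 0.15.

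Epithelial cells were divided in the same way by Krt20, a keratin of differentiated colon epithelium. Cells with a UMI of Krt20 after thinning (1254 and 956 cells) held a summed level of 64.4 against 44.3 in the remaining cells in Mir34a_F/F (log2 ratio 0.54, 0.52 to 0.55) and 51.8 against 35.8 in Mir34a_Mye_KO (0.53, 0.51 to 0.55). Of 32 members tested, 12 were higher by at least 0.5 in both libraries, against 9.56% of all genes, and 0 were lower, against 11.7%. The members over this limit included glucose uptake and phosphorylation (Slc2a1, Hk1, Hk2), Slc16a3 and the hypoxia genes Car9, Adm, Egln3, Ankrd37, Hif1a and Ero1l, besides Pfkfb3 and Pfkfb4. Hk2 was at 8.93 against 4.55 (0.97, 0.93 to 1.01) and at 7.47 against 3.44 (1.12, 1.08 to 1.17). Car9 was at 0.590 against 0.256 (1.20) and at 0.429 against 0.189 (1.19). The log2 ratios of Hk2 were thus larger between these epithelial groups than between the macrophage groups, which were made with other markers. This difference was not tested. Ndrg1 (-0.21 and -0.39) and Aldoc (-0.35 and -0.84) were lower in Krt20 cells of both libraries. The summed epithelial markers were higher in Krt20 cells too (77.6 against 54.4 and 53.6 against 38.02), and so were erythroid markers (2.04 against 0.426 and 1.49 against 0.231). The median depth was 6150.5 against 5598 and 9402.5 against 6538 UMIs, and the part of these in the result was not tested.

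Car9 cells, a grouping added after seeing the data, had a summed level of the other 34 members that was higher by 0.51 (0.48 to 0.54) and 0.45 (0.42 to 0.49) on the log2 scale than in epithelial cells without a UMI of Car9 (322 and 209 cells with Car9). Car9, which defines the group, was left out of this sum and of the count that follows. The members higher by at least 0.5 in both libraries numbered 8 of 31 (Eno1, Ldha, Bnip3, Pfkfb4, Hk1, Slc16a3, Egln3 and Pgk1), against 4.24% of all genes, and 0 were lower, against 5%. Epithelial markers were also higher in Car9 cells (76.0 against 56.4 and 52.0 against 39.3), as was the median depth (7076.5 against 5636 and 8526 against 6756.5 UMIs), and their part was not tested. Cycling cells, marked by a UMI of Mki67, had 0 members past this limit. Epithelial cells with Mki67 (802 and 572 cells) had 0 of 32 members higher and 0 lower, against 6.4% and 2.31% of all genes, and a summed level that differed by -0.13 and -0.06. Their median over members was -0.23 and -0.05, against 0.06 and 0.09 over all genes. In both libraries 18 members were below 0 and 5 above. T cells with Mki67 (124 and 115 cells) had 0 of 29 members higher and 0 lower, against 4.95% and 2.18%, and their summed level differed by -0.04 and 0.11. Their median over members was 0.01 and 0.19, against 0.04 and 0.05 over all genes.

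The libraries of both genotypes were then compared within each cell type, as the study did to ask how loss of Mir34a in myeloid cells changes the cells of the tumor. Subtypes within the annotated types, other than the groups described above, were not analysed here, so a different makeup of a type and a different level per cell cannot be told apart. The study reported that subtype frequencies differed between the genotypes. Inflammatory tumor cells and a subtype of neutrophils were more frequent in Mir34a_Mye_KO, and tumor cells with Lgr5 or Krt20 were less frequent. Among macrophages, the study reported Cdk8 and Mrc1 subtypes as more frequent in Mir34a_Mye_KO. Nos2 and Spp1 macrophages and monocytes were less frequent there. A member is counted where the log2 ratio of its level in Mir34a_Mye_KO over that in Mir34a_F/F was at least 0.5 in size, among genes whose mean reached 0.1 in either library. The summed level of the members was lower in the Mir34a_Mye_KO library in macrophages (log2 ratio -0.33, -0.34 to -0.31) and epithelial cells (-0.32, -0.33 to -0.31) and about equal in neutrophils (0.04, 0.02 to 0.07). T cells were at -0.16, mast cells at -0.08, dendritic cells at -0.09 and B cells at -0.54, the last with the 5.69-fold difference in depth. Without mitochondrial, immunoglobulin and ribosomal RNA-like genes in the totals the value of B cells was -0.19, and B cell markers summed to 127 and 292 UMIs per 10000 in them. The glycolysis and hypoxia lists moved together in macrophages (-0.34 and -0.28) and epithelial cells (-0.32 and -0.29). In T cells (-0.24 and 0.02) and mast cells (-0.21 and 0.14) the sums differed, but abundant members carry the hypoxia sum there (Hif1a in T cells, Ero1l and Ndrg1 in mast cells). The median over members was below 0 for both lists in T cells (-0.25 and -0.17) and in mast cells (-0.22 and -0.08). Over all genes it was -0.09 in T cells and -0.13 in mast cells. In T cells both lists thus lay below the median of all genes. In mast cells the glycolysis list lay below it and the hypoxia list above it.

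In macrophages, 5 of 31 members were lower in the Mir34a_Mye_KO library by at least 0.5, against 5.95% of all genes, and 0 were higher, against 2.65%. The 5 were Bnip3, Ankrd37, Egln3, Eno1 and Ddit4, of which 4 belong to the hypoxia response. The members lower by this limit numbered 10 with UMIs summed over cells and 0 with a pseudocount of 1. For these counts, and for those of other settings in the types below, no share of all genes is given. They show only how the number depends on the setting. The log2 ratio of the summed level was -0.22 with totals that leave out mitochondrial, immunoglobulin and ribosomal RNA-like genes. The median was -0.31 over the members and -0.06 over all genes, and 28 of the 31 members were below 0 (58.9% of all genes). Bnip3 went from 0.752 to 0.426 (log2 ratio -0.82, -0.97 to -0.67), Egln3 from 0.603 to 0.351 (-0.78, -0.97 to -0.59) and Eno1 from 1.84 to 1.20 (-0.62, -0.70 to -0.53). Gapdh differed by -0.34 and Ldha by -0.41. Pfkfb4, P4ha1 and Slc16a1 differed by less than their counting error.

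The macrophage groups described above were not equally frequent in the libraries. Arg1 without Mrc1 made up 18.9% and 8.48% of thinned macrophages, Mrc1 without Arg1 11.04% and 18.03%, both 1.46% and 1.43%, and neither 68.6% and 72.1%. By immunohistochemistry, the study reported the opposite direction for Arginase-1, with more positive stromal cells in tumors of Mir34a_Mye_KO. That measure is of protein in stromal cells, whereas the shares here are of mRNA in annotated macrophages. Within the groups, the summed level differed by -0.15 (-0.18 to -0.12) in Arg1 cells, -0.20 (-0.25 to -0.15) in Mrc1 cells and -0.25 (-0.27 to -0.23) in cells with neither. It was 0.07 (-0.05 to 0.19) in the 32 and 37 cells with both. With the shares of the 4 groups in the Mir34a_Mye_KO library set to those of Mir34a_F/F, a calculation added after seeing the data, the summed level became 50.7 in place of 46.8 and the log2 ratio -0.22 (-0.23 to -0.20) in place of -0.33. By the same calculation Bnip3 went to -0.59, Egln3 to -0.62, Eno1 to -0.45, Ddit4 to -0.40 and Ndrg1 to 0.02 from -0.11. Eno1 and Ddit4 were then short of the limit of 0.5. Most macrophages were in neither group, so the calculation leaves the makeup of those cells as it was. Mitochondrial content, 2.01% and 3.75% at the median of macrophages, went with the library, and among macrophages under 10% mitochondrial UMIs the summed level was 60.1 and 48.3. In macrophages, epithelial markers summed to 15.7 and 12.02 UMIs per 10000, erythroid markers to 1.98 and 0.0577 and B cell markers to 1.60 and 5.76. The median depth was 7251.5 and 11227 UMIs, and the part of these in the ratios was not tested.

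Epithelial cells had 3 of 32 members lower by at least 0.5 (Eno1, Bnip3 and Ankrd37), against 8.57% of all genes, and 0 higher, against 1.89%. With UMIs summed over cells 8 were lower, and with a pseudocount of 1 there were 0. The median was -0.31 over the members and -0.22 over all genes, and 31 of 32 members lay below 0, as did 87.7% of all genes, so the members differed from the background by little. Eno1 went from 0.841 to 0.547 (-0.62, -0.69 to -0.55), Ndrg1 from 0.850 to 0.612 (-0.48) and Slc16a3 from 0.800 to 0.596 (-0.42). Epithelial markers themselves summed to 56.8 and 39.5 in epithelial cells, macrophage markers to 1.15 and 1.76 and B cell markers to 1.91 and 7.36, and their part was not tested. Mitochondrial content moved with this result, at a median of 11.2% and 18.3%. The summed level was 49.0 and 42.6 in epithelial cells under 10% mitochondrial UMIs, 51.3 and 43.9 between 10% and 25%, and 33.7 and 28.6 from 25% upwards. The median depth in these ranges was 7579.5 and 2647, 5852.5 and 11748, and 2562 and 6713 UMIs, so the cells compared within a range were not alike between the libraries. With totals that leave out mitochondrial, immunoglobulin and ribosomal RNA-like genes, the log2 ratio in epithelial cells was -0.06, and the median over all genes moved from -0.22 to 0.04. The direction of single members in epithelial cells should be read against this shift.

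Neutrophils gave another picture. Of 32 members, 2 were higher by at least 0.5 (Slc2a3 and Pfkp), against 8.02% of all genes, and 4 were lower (Slc16a1, Car9, Adm and Ankrd37), against 18.8%. With the totals named for epithelial cells 4 were higher and 2 lower, and with a pseudocount of 1 there were 1 and 0. The median was -0.07 over the members and -0.15 over all genes, or 0.02 and -0.05 with those totals. Slc2a3 went from 1.88 to 3.19 UMIs per 10000 (log2 ratio 0.76, 0.64 to 0.89), Pfkp from 0.983 to 1.48 (0.59, 0.40 to 0.77) and Slc16a3 from 5.36 to 7.55 (0.49, 0.42 to 0.57). Hif1a was at 3.68 and 4.53 (0.30, 0.20 to 0.39). Among the enzymes, Ldha was at 3.85 and 2.93 (-0.39), Tpi1 at 2.31 and 1.78 (-0.37) and Gapdh at 9.29 and 7.76 (-0.26). Aldoa (-0.07), Pgk1 (-0.07), Pgam1 (0.15), Eno1 (-0.11) and Pkm (0.08) had intervals that held 0, so the enzymes of the pathway did not share a direction. A UMI of Slc2a3 was found in 14.5% and 20.2% of thinned neutrophils, and in 0.28% and 0.81% of thinned epithelial cells. Of the 4 lower members, Car9 had its highest level in epithelial cells, as given above, and the summed epithelial markers in neutrophils were 23.2 and 13.8 UMIs per 10000. All 4 epithelial markers were in this sum, and its part in the lower values of Slc16a1, Car9, Adm and Tpi1 was not tested. Neutrophil markers themselves summed to 1481 and 964 in neutrophils, B cell markers to 1.63 and 5.42 and erythroid markers to 1.65 and 0.196. The median depth was 4107 and 7330 UMIs and the mitochondrial content 1.26% and 2.83%, and the part of these in the ratios was not tested.

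In T cells, 5 of 31 members were lower by at least 0.5 (Car9, Tpi1, Adm, Ankrd37 and Ddit4), against 12.8% of all genes, and 1 was higher (Slc2a3), against 2.9%. The lower members numbered 1 with UMIs summed over cells, 3 with the totals named for epithelial cells and 0 with a pseudocount of 1, which also left 0 higher. The median was -0.19 over the members and -0.09 over all genes. Slc2a3 was at 0.296 and 0.419 (0.50, 0.29 to 0.71), P4ha1 at 0.975 and 1.22 (0.32, 0.20 to 0.44) and Pfkp at 1.09 and 1.24 (0.19, 0.08 to 0.30). Egln1 differed by less than its counting error (0.15, -0.01 to 0.30). Tpi1 was at 2.06 and 1.43 (-0.53, -0.62 to -0.44), Ddit4 at 0.866 and 0.606 (-0.51, -0.64 to -0.38) and Slc16a3 at 0.640 and 0.478 (-0.42, -0.58 to -0.26). Epithelial markers summed to 20.9 and 11.5 in T cells, neutrophil markers to 8.80 and 4.82, erythroid markers to 1.84 and 0.0694 and B cell markers to 2.12 and 4.84. The median mitochondrial content was 1.90% and 3.30%, and the part of these in the ratios was not tested.

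**Figure D4:**
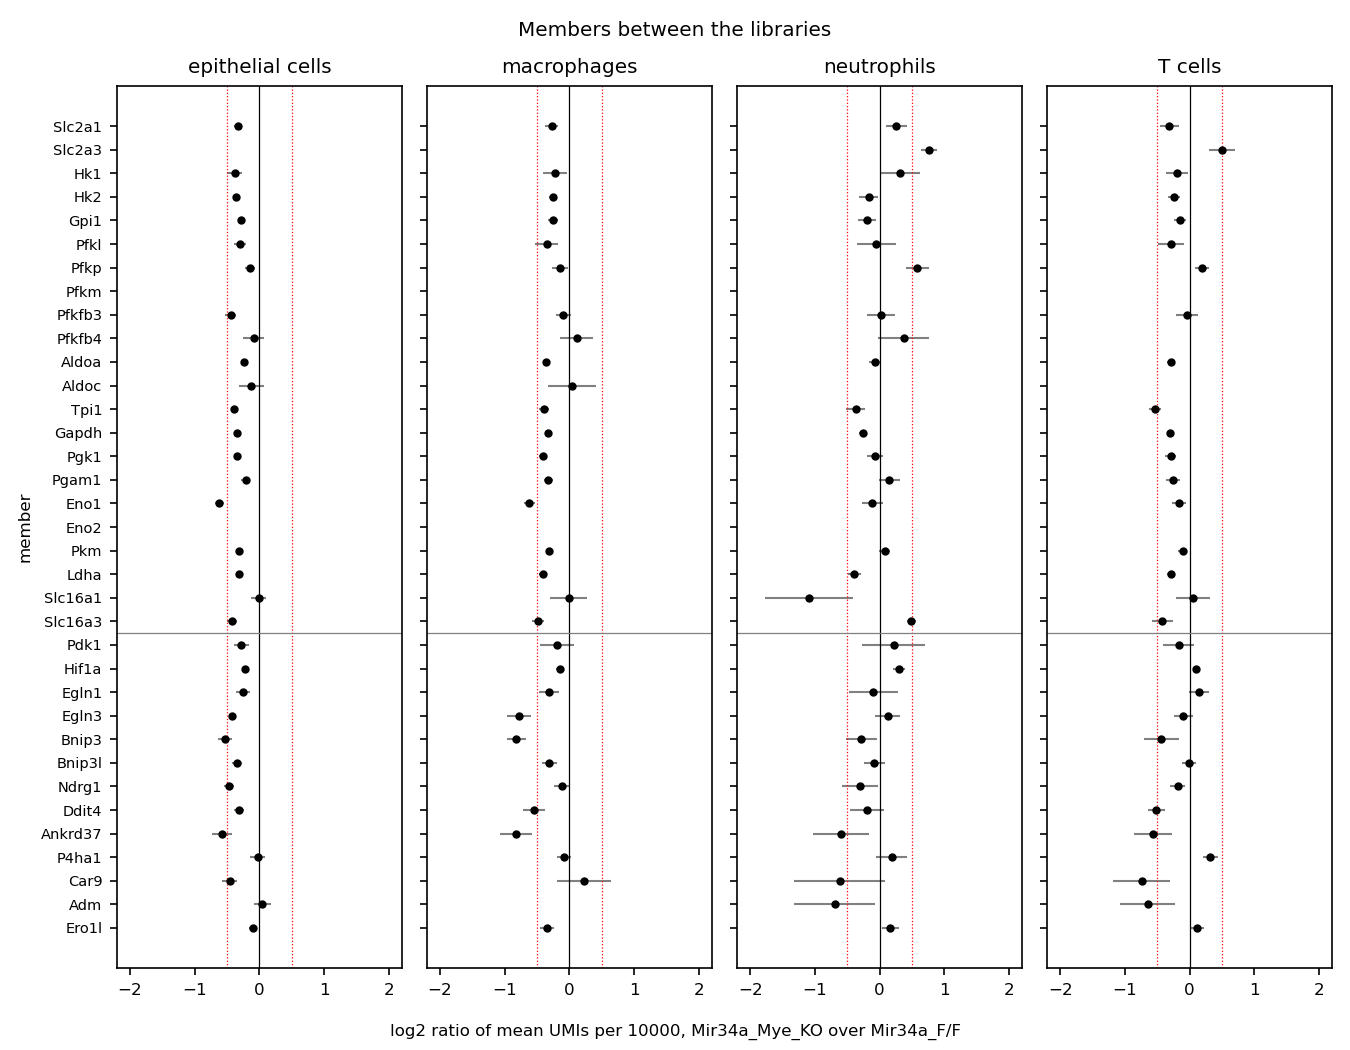
Log2 ratio of the mean UMIs per 10000 in the Mir34a_Mye_KO library over the Mir34a_F/F library (x axis) for the members whose mean reached 0.1 in either library (y axis, glycolysis above the grey line), in epithelial cells, macrophages, neutrophils and T cells. Bars are 95% counting intervals and dotted lines are at -0.5 and 0.5; most points of epithelial cells and macrophages lie below 0, and Slc2a3 in neutrophils lies at 0.76.

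Members that encode the same activity changed weight between cell types. Slc2a3 made up 58.9% and 68.9% of the UMIs of Slc2a1 and Slc2a3 in neutrophils, 45.1% and 58.9% in mast cells, 28.2% and 41.0% in T cells and 2.33% and 4.35% in epithelial cells. The share was higher in the Mir34a_Mye_KO library in each of these types, with exact binomial intervals that did not overlap. This does not cover B cells and dendritic cells, with 58 and 135 and with 35 and 104 UMIs of Slc2a3. Epithelial markers summed to 23.2 and 13.8 UMIs per 10000 in neutrophils, 19.8 and 10.3 in mast cells and 20.9 and 11.5 in T cells. The part of epithelial RNA, which held mostly Slc2a1, in these shares was not tested. Slc16a3 made up 97.3% and 98.9% of the UMIs of Slc16a1 and Slc16a3 in neutrophils, 89.8% and 88.5% in macrophages and 71.8% and 66.3% in epithelial cells. Egln3 made up 48.5% and 36.9% of Egln1 and Egln3 in macrophages and 51.3% and 29.1% in dendritic cells, but 75.3% and 76.1% in epithelial cells and 77.6% and 79.0% in neutrophils. The totals used for scaling do not enter shares within a pair. The UMIs were summed over cells, however, so deeper cells weigh more, and most shares moved with a stricter choice of cells (given below). Hk2 was 92.5% and 93.5% of the hexokinases in epithelial cells and 75.2% and 69.9% in neutrophils, where Hk3 held 12.8% and 14.9%. Pfkp was 68.3% and 77.5% of the phosphofructokinases in neutrophils.

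**Figure D5:**
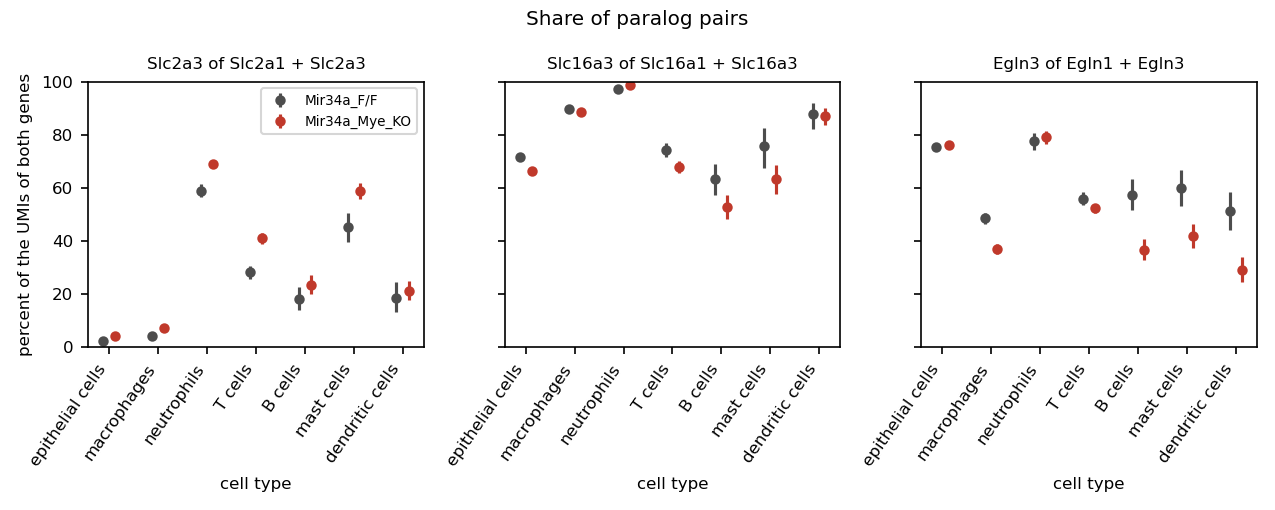
Share of Slc2a3, Slc16a3 and Egln3 (percent, y axis) in the UMIs of each gene and its partner (Slc2a1, Slc16a1 and Egln1) in the 7 larger cell types (x axis) of the Mir34a_F/F library (grey) and the Mir34a_Mye_KO library (red), with exact binomial 95% intervals. The share of Slc2a3 is highest in neutrophils (58.9% and 68.9%), and that of Egln3 in macrophages is 48.5% and 36.9%.

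Members with and without the seed match shown above had medians between the libraries that lay within 0.1 of each other in macrophages, neutrophils, epithelial cells and T cells. In macrophages, the median log2 ratio was -0.34 over 11 members with a match and -0.30 over 20 without, and -0.02 and -0.06 over all genes with and without one. In neutrophils it was -0.07 over 13 members with a match and -0.07 over 19 without, and -0.08 and -0.16 over all genes. Members with a match lay on both sides of 0 in neutrophils, with Slc2a3 (0.76) and Slc16a3 (0.49) above and Ldha (-0.39) below. In epithelial cells, which are not the target of LysM-Cre, the medians were -0.29 over 12 members and -0.34 over 20, and -0.20 and -0.23 over all genes. In T cells they were -0.24 over 12 members and -0.16 over 19, and -0.01 and -0.10 over all genes. The median over all genes with a match was thus less low than that over genes without one in each of the 4 types. Over the members, the order was the reverse in macrophages and T cells. Genes with and without a match were not balanced for UTR length, and the part of miR-34a in these medians was not tested.

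Other genes of the same pathways, 39 in number and not members, were mostly too low to compare. In macrophages, 19 of them were tested, with 1 higher (Slc16a7, 0.51) and 1 lower (Eno3, -0.58), against 2.65% and 5.95% of all genes. In neutrophils, 16 were tested, with 1 higher (Mxi1, an antagonist of Myc, 0.57), against 8.02% of all genes. The 2 lower there were Hif1an (-0.65) and Egln2 (-0.86), against 18.8%. Epithelial cells had 0 higher and 1 lower (Egln2, -0.54) of 16, against 1.89% and 8.57%. T cells had 0 higher and 1 lower (Vegfa, -0.53) of 15, against 2.9% and 12.8%. Vegfa, the angiogenic HIF target, was at 3.46 and 2.65 UMIs per 10000 in macrophages (-0.39, -0.44 to -0.33), and thus higher there than Bnip3 or Egln3.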

How the data were processed

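CACs were profiled by single-cell RNA sequencing (10x 3′ v3.1 chemistry). Per the labels and the study's methods, the authors counted reads with Cell Ranger 7.2.0 on mm10, removed doublets with Scrublet, kept cells with over 200 mRNAs and under 25% mitochondrial content, and normalized with Seurat. The deposited values are the natural log of 1 plus UMIs per 10000; cells with at least 25% mitochondrial UMIs are in the files (12.2% and 22.2% of cells). The log was undone and values divided by the step of 1 UMI of each cell, which gave whole counts for 100% of 96847573 values (tolerance 0.01). Library and cell type came from the deposited annotation, which gives no mouse.

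Totals were 147109016 and 193133086 UMIs. Ratios of means carry intervals from UMI sums. They were checked on simulated data in which all cells of a group shared the same level of a gene. That check could not show how far the spread between cells would widen them. Cells under 1000 UMIs left the thinned values (627 and 160 epithelial cells, 15 and 6 macrophages). Shares have exact binomial intervals. Named in full are each member in its highest type and, in 4 types, the 3 most extreme ratios up and down (members with a mean from 0.5 upwards and UMIs in 25% of cells or more). Members and lists were chosen with earlier results of these data known. 3′ UTRs are the longest of GENCODE vM21 per gene. Python 3.11.15, numpy 2.4.6, scipy 1.17.1, pandas 2.3.3 and matplotlib 3.10.9 were used. Alternatives were UMIs summed over cells, cells with at least 500 mRNAs and under 10% mitochondrial content, a pseudocount of 1, no minimum mean, sums without Gapdh, totals without 409 mitochondrial, immunoglobulin and ribosomal RNA-like genes, and no shared barcodes.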

Additional observations from a re-analysis of the deposited data

Results flagged for a closer look

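Epithelial cells, macrophages, neutrophils and T cells were compared for members with a mean of at least 0.5 UMIs per 10000 in the type. Among these, the log2 ratio of 5 members between the libraries (Mir34a_Mye_KO over Mir34a_F/F) had opposite signs in different types, with counting intervals on either side of 0. With 1 library per genotype, the difference between cell types was not tested. The share of all genes that meet this rule was not determined, so the number of members is not set against a background. The median over all genes was itself -0.22, -0.06, -0.15 and -0.09 in epithelial cells, macrophages, neutrophils and T cells. Slc2a1 was at 0.26 in neutrophils, -0.34 in epithelial cells, -0.28 in macrophages and -0.31 in T cells. Slc16a3, the lactate exporter, was at 0.49 in neutrophils and -0.42, -0.48 and -0.42 in epithelial cells, macrophages and T cells. Pfkp was at 0.59 in neutrophils and 0.19 in T cells but at -0.14 in epithelial cells and -0.15 in macrophages. Hif1a was at 0.30 in neutrophils and 0.10 in T cells but at -0.22 and -0.15 in epithelial cells and macrophages. Ero1l was at 0.16 and 0.11 in neutrophils and T cells and at -0.10 and -0.34 in epithelial cells and macrophages. With totals that leave out mitochondrial, immunoglobulin and ribosomal RNA-like genes, the ratios in epithelial cells became 0.11 for Pfkp, 0.06 for Hif1a and 0.13 for Ero1l, so their opposite sign in epithelial cells depends on the totals. In macrophages they became -0.05 for Pfkp and -0.05 for Hif1a, with intervals that held 0, and -0.23 for Ero1l. With UMIs summed over cells, Hif1a was at 0.02 in macrophages and Pfkp at 0.000301, and Ero1l at 0.14 in epithelial cells. The signs of Slc2a1 and Slc16a3 in the 4 types were the same with either setting. In epithelial cells with at least 500 mRNAs and under 10% mitochondrial content, Slc16a3 was at -0.10 (-0.25 to 0.05). Hif1a was at -0.06, Pfkp at 0.02 and Ero1l at 0.09 in these cells, also with intervals that held 0. The depth of the Mir34a_Mye_KO library exceeded that of Mir34a_F/F by 1.78-fold in neutrophils and 2.27-fold in T cells, and its part in these signs was not tested.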

How the results depend on the processing

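No paired analysis was possible because each genotype has 1 library. No ratio of a summed level in the 7 larger types and none of 18 single ratios of members changed sign, whereas medians did (given below), as did ratios of Pfkp, Hif1a and Ero1l given above. With UMIs summed over cells, the log2 ratio of the summed level was -0.29 in epithelial cells, -0.37 in macrophages, -0.12 in T cells and -0.00111 in mast cells, and the members lower by the fold were 8 (epithelial cells), 10 (macrophages) and 1 (T cells). With cells of at least 500 mRNAs and under 10% mitochondrial content it was -0.21 in epithelial cells, 0.0725 in neutrophils and -0.13 in T cells, with 1 epithelial member higher, as without a minimum mean. Without 409 mitochondrial, immunoglobulin and ribosomal RNA-like genes in the totals it was -0.0598, -0.22, 0.12, -0.0792, -0.19, -0.00725 and -0.0217 in epithelial cells, macrophages, neutrophils, T, B, mast and dendritic cells; 1 epithelial and 4 neutrophil members were then higher, and 0 epithelial, 2 neutrophil and 3 T cell members lower. Without Gapdh it was 0.0933 in neutrophils, -0.13 in T cells and -0.59 in B cells. A pseudocount of 1, which shrinks ratios of low mRNAs, left 0 members lower in all 4 types, 1 higher in neutrophils and 0 in T cells. No share of all genes is given beside the counts of these settings, so they have no background.

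Those totals moved the median over all genes to 0.04, 0.05, -0.05, -0.01 and -0.02 in epithelial cells, macrophages, neutrophils, T cells and B cells, and that of the members to -0.06, -0.21, 0.02, -0.14 and -0.30. The sign thus changed for the median over all genes in epithelial cells and macrophages and for that of the members in neutrophils, as it did in dendritic cells (-0.0714 to 0.00171). Of genes past the fold, 73.3%, 57.7%, 45.5% and 37.2% were then higher in the first 4 types, against 18.1%, 30.8%, 29.9% and 18.5% with all UMIs. In epithelial cells the share higher was 48.8% with the stricter cells and 8.01% with summed UMIs. Of 18 single ratios of members, 7 (summed UMIs), 3 (stricter cells), 12 (pseudocount) and 5 (totals) moved by more than their counting error. In the stricter cells, 6 of 8 shares within gene pairs did, such as Hk2 in neutrophils with 70.4% and 60.3%. The difference between mice cannot be estimated from pooled libraries, and shallow cells limit mRNAs below about 0.1 UMIs per 10000.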

Other observations

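Epas1, which encodes the HIF-2 alpha subunit and is not among the members, was highest in endothelial cells of the 11 cell types, with 2.72 and 4.64 UMIs per 10000 (174 and 418 UMIs; log2 ratio 0.77, 0.42 to 1.12). Summed over the members of the hypoxia list, endothelial cells went the other way, with 12.6 and 8.58 UMIs per 10000 (-0.56, -0.77 to -0.35). As a part of all UMIs of these cells, the list held 0.108% and 0.0990% (734 and 764 UMIs). The difference was thus smaller with UMIs summed over cells. Among the hydroxylases of the pathway, Egln2 (PHD1) was at 0.706 and 0.255 in these cells (27 and 15 UMIs; -1.47, -2.74 to -0.21). The 116 and 107 endothelial cells had a median depth of 3964 and 4407 UMIs, the closest pair of depths of all cell types. Their median mitochondrial content was 3.37% and 5.90%. Marker sums in these cells were 24.6 and 13.9 UMIs per 10000 for epithelial cells, 6.69 and 28.3 for neutrophils and 3.37 and 0.197 for erythroid cells. The part of these in the values was not tested.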
